A study of Sus scrofa with 8 samples.

Results

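The S100A genes described here are small calcium-binding protein genes measured in porcine pancreatic ductal organoids (PPDO). They were chosen by symbol, as every S100A gene of a list of 10 whose symbol occurs in the deposited bulk count table. By this rule 8 of the 10 were found among 30282 genes, namely S100A2, S100A4, S100A6, S100A8, S100A10, S100A11, S100A12 and S100A14, and all 8 passed the filter on low counts. The other 2, S100A9 and S100A16, were not matched by symbol and were not analysed here.

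S100A proteins are short EF-hand proteins that usually pair into dimers and change shape when they bind calcium, which lets them grip target proteins such as annexins. Several are also released from cells and act outside them through receptors such as AGER (RAGE) and TLR4. S100A8 and S100A12 are calgranulins, best known from neutrophils and monocytes but also made by squamous and inflamed epithelia, where they take metal ions away from microbes. Most S100A genes lie in one stretch of the genome next to genes of the outer layers of the skin, the epidermal differentiation complex.

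PPDO are organoids grown from ducts that were picked by hand from digested pancreas of pigs. Em is the line of an embryo, and EPN1 and EPN2 are those of early postnatal pigs, aged between birth and shortly after weaning. LPN is the line of a late postnatal, adolescent pig. Each of the 4 lines was grown for a week in either medium, complete or differentiation, and the 8 libraries of poly(A) RNA hold 1 culture per line and medium. Both media held N2 and B27 supplements, A83-01, Y-27632, nicotinamide and N-acetylcysteine. Complete medium also held the growth factors EGF and FGF10, WNT3a with R-spondin and noggin, and the hormones gastrin and prostaglandin E2, and differentiation medium held none of these. The sample titles divide control from treated cultures, whereas in the treatment field all 8 carry the same endocrine induction medium, and the media are taken here from the titles and column names. With 1 line for Em and 1 for LPN, line and developmental stage cannot be told apart, and EPN1 and EPN2 are the only lines that share a stage.

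Library totals were 40553593 to 47910657 counts. Levels are given as CPM, counts scaled to a common library size with the TMM factors, always in the order Em, EPN1, LPN, EPN2. Transcript lengths were not used, so levels are compared between libraries and not between genes. To compare the media, the edgeR quasi-likelihood test was run without a term for the line, and again with the line as a block, which compares the media within each line. P-values were adjusted by Benjamini-Hochberg over the 14475 genes tested and the threshold was 0.05. Positive log2 changes are higher in differentiation medium.

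All 8 genes lie on chromosome 4 of the RefSeq annotation of Sscrofa11.1. S100A14 (96027746 to 96029878), S100A2 (96073496 to 96076825), S100A4 (96088102 to 96091160) and S100A6 (96098264 to 96099686) come first along the chromosome. S100A8 (96209670 to 96210603) and S100A12 (96225691 to 96227030) follow. S100A11 (97233833 to 97239081) and S100A10 (97261752 to 97272517) are neighbours of each other farther along. The count table gives the symbol S100A2 to the identifier ENSSSCG00000006580, to which a separate table of gene names does not give that symbol, and the other 7 identifiers carried the same symbol in both.

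The calgranulins varied most among the S100A genes. S100A8 and S100A12 were higher in differentiation medium in each of the 4 lines, by 3.28- to 10.5-fold and 3.83- to 9.32-fold, and both passed the test of the media when the line was a block. The distance between lines was wider still, since EPN2 stood 230-fold above Em for S100A8 and 157-fold for S100A12 in complete medium. S100A4, a metastasis-associated member that binds non-muscle myosin, was also higher in all 4 lines but did not pass either edgeR test. S100A2, S100A6, S100A10, S100A11 and S100A14 moved less or in different directions, and S100A11 was almost the same in both media in every line.

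**Figure D1:**
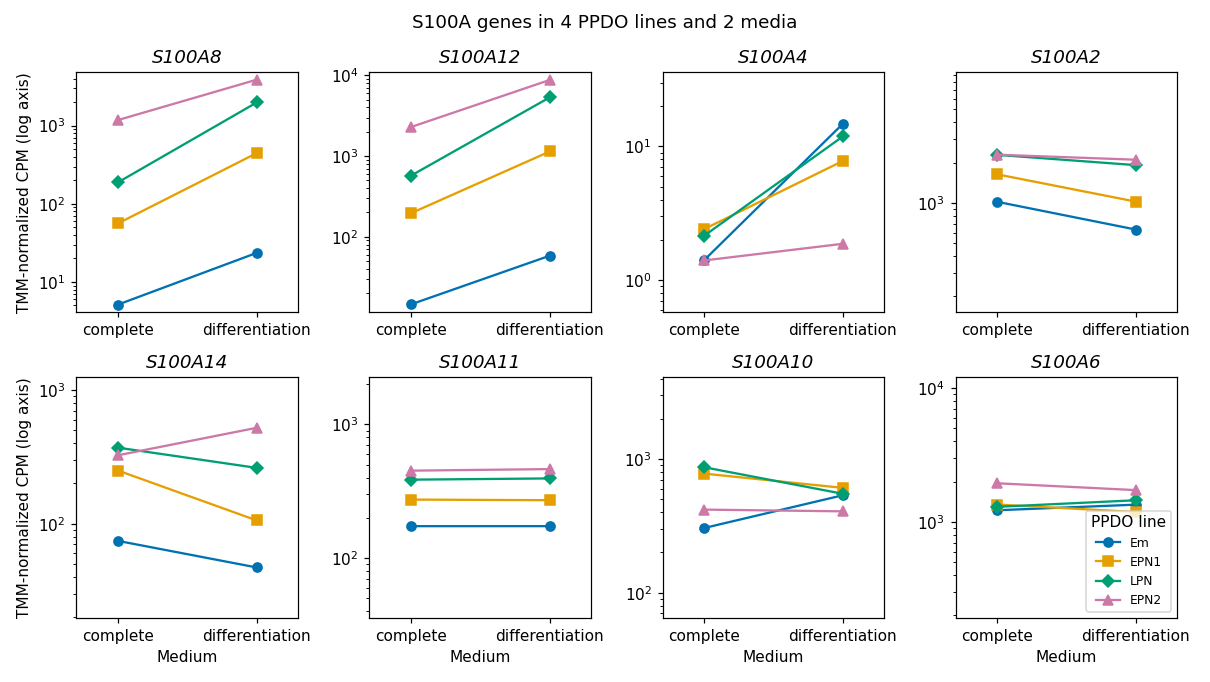
TMM-normalized CPM (log axis) of the 8 S100A genes in complete and differentiation medium, with 1 point per library and 1 line colour and marker per PPDO line. S100A8 and S100A12 run upward in all 4 lines with Em at the bottom and EPN2 at the top, S100A11 runs flat in 4 separate levels, and S100A10 runs upward in Em but not in the 3 postnatal lines.

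S100A8, the partner that with S100A9 forms calprotectin, had 5.13, 56.2, 188 and 1180 CPM in complete medium in Em, EPN1, LPN and EPN2. In differentiation medium it had 23.6, 445, 1979 and 3873 CPM. Every line was higher in differentiation medium, yet the media overlapped, since EPN2 in complete medium stood above Em and EPN1 in differentiation medium. The folds were 4.59 in Em, 7.92 in EPN1, 10.5 in LPN and 3.28 in EPN2. Without the line, the log2 change was 2.15 with an SE of 1.66 (edgeR, adjusted p = 0.437). Compared within lines, it was 2.58 with an SE of 0.32 (adjusted p = 0.0131). In bulk RNA, a change in the number of cells that express a gene and a change in the RNA per cell cannot be told apart.

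S100A12, a calgranulin that signals through AGER, had 14.6, 196, 572 and 2288 CPM in complete medium. Its levels in differentiation medium were 58.3, 1139, 5332 and 8761 CPM. The lines kept the order Em, EPN1, LPN, EPN2 in both media, and here too EPN2 in complete medium stood above Em and EPN1 in differentiation medium. The folds were 4.0 in Em, 5.81 in EPN1, 9.32 in LPN and 3.83 in EPN2. The log2 change was 2.32 with an SE of 1.58 without the line (edgeR, adjusted p = 0.374) and 2.42 with an SE of 0.26 with the line as a block (adjusted p = 0.0112). Both calgranulin calls within lines needed EPN1 and LPN. Leaving out EPN1 gave an adjusted p of 0.0727 for S100A12 and 0.0750 for S100A8, and leaving out LPN gave 0.0539 and 0.0619, with log2 changes of at least 2.16. Without those lines the edgeR fit with the block called only 8 and 22 genes of the whole transcriptome.

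S100A8 and S100A12 moved in step. Their levels had the same rank order over the 8 libraries, from Em in complete medium to EPN2 in differentiation medium. S100A8 spanned a 754-fold range and S100A12 a 602-fold range, whereas the ratio of S100A12 to S100A8 counts stayed between 1.94, in EPN2 in complete medium, and 3.49, in EPN1 in complete medium. The ratio itself depends on transcript lengths, and only its spread is described. The pairs come from the same 8 libraries, so depth and library are shared. Estimated counts are not whole where salmon divides reads between transcripts. Those of S100A8 were whole in all 8 libraries, and those of S100A12 were not whole in 2. Extensions beyond the annotated genes held 0.0416% of S100A8 and 0.295% of S100A12 counts.

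**Figure D2:**
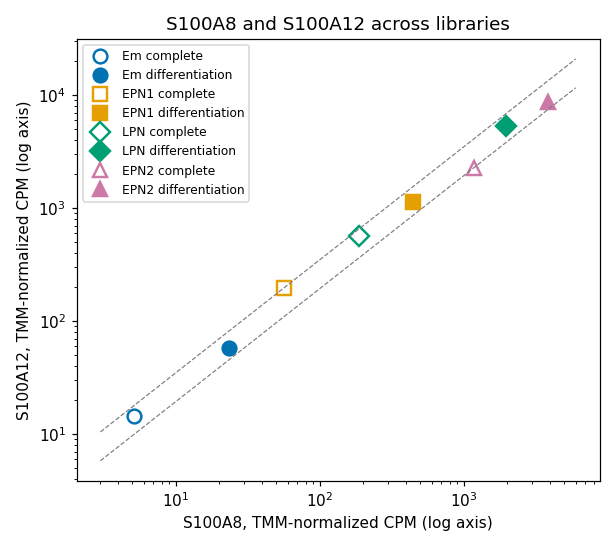
S100A12 against S100A8 in TMM-normalized CPM (both axes log), with 1 point per library, open symbols for complete and filled symbols for differentiation medium. The dashed lines mark the lowest and highest ratio, 1.94 and 3.49, and the 8 libraries lie between them while S100A12 spans 602-fold.

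The 8 genes together took up 0.283% of all counts in Em in complete medium and 1.67% in EPN2 in differentiation medium. S100A8 and S100A12 made up 0.700%, 5.56%, 12.7% and 39.0% of these S100A counts in complete medium. In differentiation medium they made up 2.89%, 33.1%, 61.5% and 70.7%. Within each line the calgranulin share of S100A counts was thus higher in differentiation medium. These are shares of counts and not of molecules.

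S100A4 was low in every library. It had 1.41, 2.40, 2.14 and 1.40 CPM in complete medium, from 62 to 100 counts per library. It had 14.8, 7.79, 11.9 and 1.87 CPM in differentiation medium. Em, EPN1 and LPN were all above the whole complete medium group, and EPN2 alone overlapped it, with 80 counts against 62. The fold in EPN2 was 1.33, and its 95% counting interval on the log2 scale, -0.08 to 0.92, includes 0. The folds were 10.5 in Em, 5.54 in LPN and 3.24 in EPN1. The fitted log2 change was 2.30 with an SE of 0.59 without the line (edgeR, adjusted p = 0.0552) and 2.01 with an SE of 0.52 with it (adjusted p = 0.0503). Without the EPN2 line these became 2.53 (adjusted p = 0.0244) and 2.51 (adjusted p = 0.0223). Leaving out Em, LPN or EPN1 instead, S100A4 passed neither edgeR fit. The adjusted p was then 0.174, 0.253 and 0.249 without the block and 0.0988, 0.186 and 0.150 with it. DESeq2 called S100A4 on all 8 libraries with and without the block (adjusted p = 4.8e-04 and 9.7e-04).

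S100A2, a nuclear member typical of basal epithelial cells, had 1019, 1635, 2287 and 2293 CPM in complete medium. In differentiation medium it had 631, 1021, 1915 and 2103 CPM. It was lower in differentiation medium in 4 of 4 lines, by 1.61-fold in Em, 1.6-fold in EPN1, 1.19-fold in LPN and 1.09-fold in EPN2, and the media overlapped widely. The log2 change was -0.35 with an SE of 0.42 without the line (edgeR, adjusted p = 0.625) and -0.44 with an SE of 0.16 with it (adjusted p = 0.0988). DESeq2 with the block passed the threshold for S100A2 (adjusted p = 0.0412).

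S100A14, an epithelial member with an incomplete calcium site, had 74.3, 250, 371 and 325 CPM in complete medium. It had 47.0, 106, 262 and 522 CPM in differentiation medium. Em, EPN1 and LPN were lower in differentiation medium, by 1.58-, 2.36- and 1.42-fold, and EPN2 was 1.61-fold higher. The log2 change was -0.12 with an SE of 0.74 without the line (edgeR, adjusted p = 0.934) and -0.44 with an SE of 0.32 with it (adjusted p = 0.348). Without EPN2 the change within lines was -0.80 (edgeR, adjusted p = 0.0412). Without Em, LPN or EPN1 it was -0.33, -0.42 and -0.16 and did not pass (adjusted p = 0.577, 0.555 and 0.760). The estimated counts of S100A14 were not whole numbers in any of the 8 libraries, and how many of its reads were shared with other transcripts was not examined.

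S100A11, which binds annexin A1 and acts in membrane repair, had 173, 274, 386 and 451 CPM in complete medium and 173, 271, 394 and 463 CPM in differentiation medium. The change within a line was between -0.02 and 0.04 on the log2 scale, with a mean of 0.01 and an SD of 0.03 over the 4 lines. Each line thus held its own level of S100A11 in both media. The fitted change was 0.02 with an SE of 0.38 without the line (edgeR, adjusted p = 0.978) and 0.01 with an SE of 0.09 with it (adjusted p = 0.925).

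S100A10, the partner of annexin A2 in a membrane-bound tetramer, had 305, 778, 868 and 418 CPM in complete medium and 536, 608, 549 and 406 CPM in differentiation medium. Em was 1.76-fold higher in differentiation medium, whereas EPN1 was 1.28-fold, LPN 1.58-fold and EPN2 1.03-fold lower. The 4 lines lay closer to each other in differentiation medium, where the highest was 1.5-fold above the lowest, than in complete medium, where it was 2.85-fold above. That difference in spread was not tested. The fitted change was -0.17 with an SE of 0.34 without the line (edgeR, adjusted p = 0.770) and -0.07 with an SE of 0.26 with it (adjusted p = 0.870).

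S100A6, also called calcyclin, which binds CACYBP and several annexins, had 1222, 1348, 1296 and 1945 CPM in complete medium and 1345, 1186, 1451 and 1728 CPM in differentiation medium. It had the narrowest range of the 8 genes, 1.64-fold from the lowest to the highest library. It was higher in Em and LPN and lower in EPN1 and EPN2, with changes between -0.18 and 0.16 on the log2 scale. The fitted change was -0.02 with an SE of 0.20 without the line and -0.01 with an SE of 0.13 with it (edgeR, adjusted p = 0.951 in both).

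**Figure D3:**
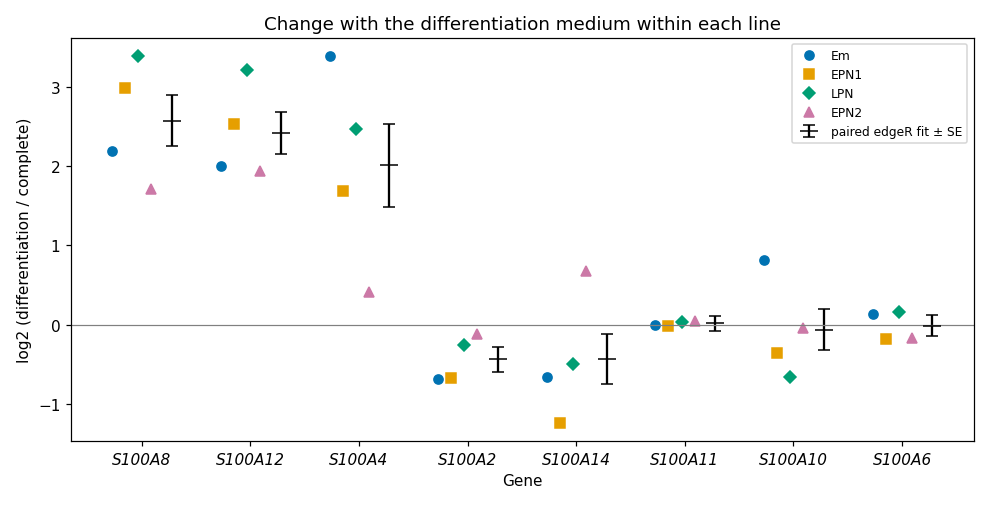
Log2 ratio of differentiation to complete medium for each S100A gene, with 1 point per PPDO line and, in black, the edgeR estimate with the line as a block and its SE. All 4 lines lie between 1.72 and 3.39 for S100A8 and between 1.94 and 3.22 for S100A12, S100A4 reaches from 0.41 to 3.39, and the 4 points of S100A11 fall together at 0.

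Counted over the 8 genes, 0 passed the edgeR test of the media without the line, where 6.97% of all tested genes did. At an unadjusted p under 0.05 there was 1, S100A4, where 27.3% of all tested genes passed that cut. DESeq2 without the block called the same gene and 18.5% of the genes it tested. With the line as a block, 2 of the 8 S100A genes, S100A8 and S100A12, were called higher, where 9.48% of all tested genes were. None was called lower with the block, where 10.4% of all tested genes were. With the block 4 of the 8 had an unadjusted p under 0.05, where 39.7% of all tested genes did, a share near the background. DESeq2 with the block called 4 of the 8, namely S100A2, S100A4, S100A8 and S100A12, and 33.8% of the genes it tested. The number higher in 4 of 4 lines was 3, where 23.9% of all tested genes were, and 1 was lower in 4 of 4 lines, where 24.2% were. With so few members, a share of this size is a description of these genes. The median log2 change of the 8 genes was -0.0025 without the line and 0.00030 with it, beside medians of 0.011 and -0.0080 over all tested genes.

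The lines differed for 3 of the 8 genes. In an F test of the 3 line terms in the edgeR model with medium and line, S100A12 (adjusted p = 0.0126), S100A8 (adjusted p = 0.0140) and S100A11 (adjusted p = 0.0240) passed, where 5.14% of all tested genes did. S100A2 (adjusted p = 0.0535) and S100A14 (adjusted p = 0.0698) did not pass, nor did S100A6, S100A10 and S100A4 (adjusted p = 0.227 to 0.427). Without the Em line none of the 8 genes passed, and 104 genes did in all (adjusted p = 0.0796 for S100A12, 0.0848 for S100A8 and 0.130 for S100A11). S100A11 also lost its call without LPN (adjusted p = 0.0629) or without EPN1 (adjusted p = 0.0582).

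In both media S100A2, S100A8, S100A11 and S100A12 ran in the order Em, EPN1, LPN, EPN2 from low to high. The order was taken from S100A8 and S100A12, so both fit it by choice. Of all tested genes 3.77% ran in it, and that share is no test of the S100A genes. This order is not that of age, since EPN2 stood above LPN. S100A14 kept it in differentiation medium only. Between neighbours in the order, no S100A gene passed the edgeR contrast from Em to EPN1, where 0.124% of all tested genes did, from EPN1 to LPN, where 0.0276% did, or from LPN to EPN2, where 0.484% did. The steps of S100A12 were nevertheless 16.1-fold from Em to EPN1 (adjusted p = 0.0580), 3.84-fold from EPN1 to LPN (adjusted p = 0.218) and 2.50-fold from LPN to EPN2 (adjusted p = 0.147). Those of S100A8 were 14.4-fold (adjusted p = 0.0643), 3.98-fold (adjusted p = 0.272) and 3.52-fold (adjusted p = 0.128). For S100A2, LPN and EPN2 were 1.05-fold apart (adjusted p = 0.871).

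The 2 early postnatal lines, which share a stage, differed from each other. EPN2 was above EPN1 by 14-fold for S100A8 (log2 3.81, SE 0.47, edgeR adjusted p = 0.0277), by 9.60-fold for S100A12 (log2 3.26, SE 0.38, adjusted p = 0.0277) and by 1.68-fold for S100A11 (log2 0.75, SE 0.13, adjusted p = 0.0455). These were 3 of 8 S100A genes called, where 4.15% of all tested genes were. S100A4 and S100A10 had lower values in EPN2 than in EPN1, with log2 differences of -1.25 (SE 0.71, adjusted p = 0.317) and -0.75 (SE 0.36, adjusted p = 0.254) that did not pass.

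Split into line, medium and what neither accounts for, the variance of log2(CPM + 1) was mostly between lines for 7 of the 8 genes. The share between lines was 99.9% for S100A11, 87.4% for S100A6, 87.3% for S100A14, 84.6% for S100A2, 82.9% for S100A12, 81.8% for S100A8 and 65.1% for S100A10. S100A4 was the exception, with 24.5% between lines and 57.1% between media. For the calgranulins the medium took 16.3% (S100A12) and 17.0% (S100A8), and 0.791% and 1.25% was left over. Over all tested genes the median shares were 49.0% for the line, 24.6% for the medium and 14.9% left over. The shares are not corrected for the number of terms, 3 for the line and 1 for the medium. The line is thus favoured even without any effect. S100A6 and S100A10 did not pass the edgeR F test of the lines (adjusted p = 0.227 and 0.293) despite their line shares.

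**Figure D4:**
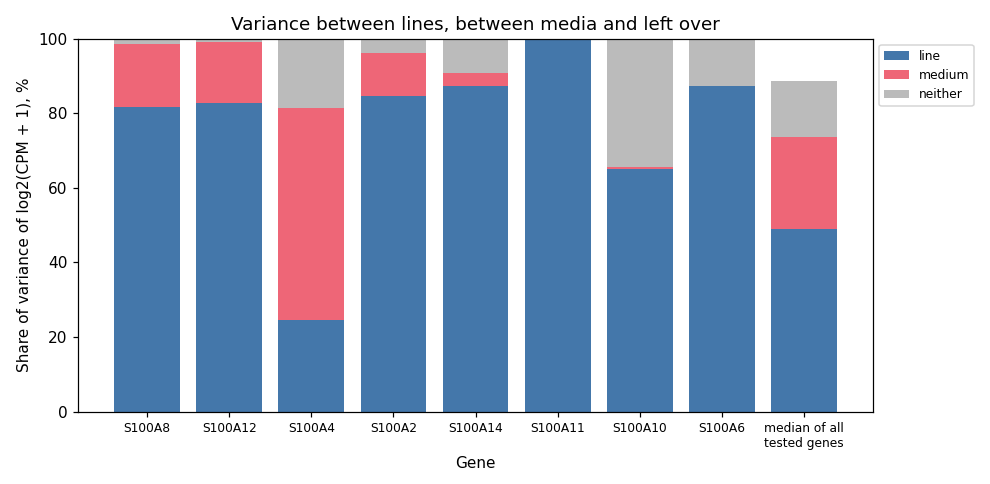
Share of the variance of log2(CPM + 1) over the 8 libraries between the 4 lines, between the 2 media and in neither, for each S100A gene and as the medians over all tested genes, which need not add up to 100. The line share is the larger one for every gene but S100A4, where the medium takes 57.1%.

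Across the 8 libraries the S100A genes followed the calgranulins to different degrees. Pearson's r of log2(CPM + 1) was 0.997 between S100A8 and S100A12, 0.966 between S100A2 and S100A14, and 0.904 and 0.911 between S100A11 and the calgranulins. With S100A8 it was 0.743 for S100A14, 0.671 for S100A2 and 0.644 for S100A6. S100A4 had r of 0.027 with S100A8 and -0.55 with S100A2, and S100A10 had r of 0.069 with S100A8. The 8 libraries share 4 lines, so these values describe the pattern and are not tests of it.

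Among 8650 tested genes with a mean of at least 10 CPM, with the S100A genes themselves left out, the genes with a symbol most like S100A8 and S100A12 were the same 3. DSG3, the desmoglein of basal and squamous epithelium, had r of 0.996 with both over the 8 libraries, LYPD3 had 0.993 with S100A8 and 0.990 with S100A12, and SIPA1L2 had 0.989 and 0.986. DSG3 had 1.23, 27.1, 113 and 453 CPM in complete medium and 9.35, 201, 598 and 1453 CPM in differentiation medium, the same order of libraries as S100A8. For S100A2, SEMA3F (r 0.985) and SERPINB10 (0.981) were among the closest. For S100A4 they were TRIO (0.974), PPTC7 (0.967) and CDH24 (0.951), and for S100A6 ATP6V1E1 (0.966), MGAT4A (0.932) and ATP6V1A (0.931).

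Markers of other cell types were read beside the calgranulins. Of 12 basal and squamous markers 7 were found, all with a mean of at least 1 CPM, and 2 of them, DSG3 (log2 2.46, edgeR with the block, adjusted p = 0.0097) and KRTDAP (log2 3.07, adjusted p = 0.0410), were called higher with the line as a block. Their summed level was 189, 675, 6321 and 10069 CPM in complete medium and 278, 3518, 9474 and 15882 CPM in differentiation medium. The sum had the line order of the calgranulins in both media and was higher in differentiation medium in every line, but it was mostly KRT5 in EPN2 and not every marker followed it. KRT15 was highest in LPN, with 1194 CPM against 183 CPM in EPN2 in complete medium. KRT4 was lower in differentiation medium in EPN2 (513 against 971 CPM), TP63 in Em (7.32 against 29.3 CPM) and TRIM29 in EPN1 (112 against 128 CPM). KRT5, the keratin of basal cells, had 4.51, 306, 4360 and 7653 CPM in complete medium and 79.4, 1431, 4812 and 11106 CPM in differentiation medium. Its r was 0.941 with S100A8 and 0.948 with S100A12. This was not particular to the calgranulins, since KRT5 had r of 0.944 with S100A11, 0.811 with S100A14 and 0.749 with S100A2. The part of basal or squamous cells in the calgranulin values was not tested.

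The labelled cell type was checked on 10 ductal markers, which were all found with a mean of at least 1 CPM. Their sum was 6826 to 11240 CPM in complete medium and 3958 to 14925 CPM in differentiation medium, lowest in EPN2 in both media, and CDH1 and ONECUT1 were called higher with the line as a block. Of the ductal markers, r was computed only for KRT8 and KRT18, which do not stand for the whole list. It was -0.74 and -0.76 with S100A8, -0.70 and -0.81 with S100A11, and -0.73 and -0.86 with S100A14. Of 13 myeloid and other immune markers 4 had a mean of at least 1 CPM, and the sum over the whole list was 31.5 to 61.5 CPM in complete medium and 9.04 to 96.9 CPM in differentiation medium once CD79A, which had 1022 to 1804 CPM in the 8 libraries, was left out. The myeloid markers MPO, TYROBP and CD163 were at 0 or at no more than 3 counts in every library, but others of the list were present. CD14 reached 70.1 CPM in LPN in differentiation medium, and CD68 reached 49.8 CPM in LPN in complete medium, with a mean of 22.4 CPM. ELANE reached 7.17 CPM in EPN1 and PTPRC 100 counts in Em, both in complete medium. ITGAM was called lower with the block. Of the other lists, 3 of 9 stromal markers had a mean of at least 1 CPM, and all 9 summed to 147 to 543 CPM over the 8 libraries, nearly all of it THY1, with PDGFRB called lower with the block. The same held for 3 of 6 endothelial markers, with sums of 16.2 to 44.8 CPM, and for 0 of the 7 acinar markers found, with sums of 0.206 to 1.97 CPM. The part of any of these cell types in the S100A values was not tested.

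Of the proteins that S100A proteins bind inside cells, 8 of 10 listed were found and tested. Without the line 0 were called higher and 1 lower, ANXA11, an annexin that binds S100A6. It had 343, 790, 693 and 388 CPM in complete medium and 250, 249, 244 and 218 CPM in differentiation medium, lower in all 4 lines and with no overlap between the media. The log2 change was -1.20 with an SE of 0.28 (edgeR, adjusted p = 0.0431). Without the EPN1 or the LPN library of either medium, 0 genes of the lists were called, ANXA11 included. Within lines 2 were called lower, ANXA11 (-1.11, adjusted p = 0.0319) and ANXA6 (-3.75, SE 0.18, adjusted p = 0.0057). ANXA6, a large annexin with a doubled core, had 145, 123, 83.9 and 11.8 CPM in complete medium and 11.6, 11, 6.60 and 0.560 CPM in differentiation medium. The partner of S100A10, ANXA2, had a change of -0.19 (adjusted p = 0.515) and the partner of S100A11, ANXA1, one of 0.20 (adjusted p = 0.800). The median of the list was -0.17.

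Among the receptors of released S100A proteins, 6 of 7 listed were found, 5 were tested and 0 were called in either edgeR fit, with a median change of 0.09. AGER, the best known of them, was lower in differentiation medium in 4 of 4 lines, with 49.0, 62.3, 49.1 and 47.3 CPM in complete and 32.0, 27, 32.0 and 46.4 CPM in differentiation medium, and its change of -0.60 did not pass (SE 0.19, adjusted p = 0.0928). TLR4 had a change of -0.10 (adjusted p = 0.792), and the 2 receptors of the highest mean, NPTN and ALCAM, had changes of 0.09 (adjusted p = 0.766) and 0.20 (adjusted p = 0.736).

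**Figure D5:**
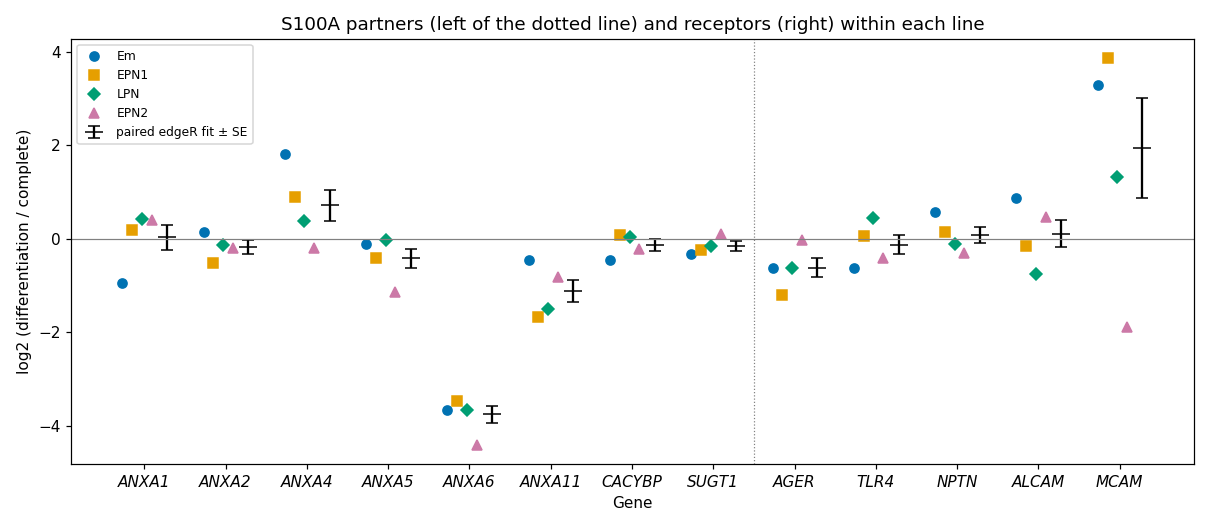
Log2 ratio of differentiation to complete medium for the 8 S100A partners and 5 receptors tested, with 1 point per PPDO line and, in black, the edgeR estimate with the line as a block and its SE. ANXA6 and ANXA11 lie below 0 in all 4 lines with estimates of -3.75 and -1.11, AGER is below 0 in all 4 lines, and the lines of MCAM spread most widely among the receptors.

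Of a list of 10 genes, other S100 genes and S100PBP, whose protein binds S100P, 7 were found and 6 tested. S100A1, a member of heart muscle and other tissues, was the 1 called, lower by 1.28 on the log2 scale without the line (SE 0.30, adjusted p = 0.0451) and by 1.31 with it (adjusted p = 0.0460). It had 62.5, 102, 131 and 92.6 CPM in complete medium and 59.4, 36.1, 39.0 and 25.3 CPM in differentiation medium. S100A1 and S100A13 overlap in the annotation, so their reads may not be fully separated. The median of the list was -0.56. S100G, an intestinal calcium carrier, had no count in complete medium and 131, 32, 1 and 0 counts in differentiation medium, and did not pass the filter.

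CRNN (cornulin), a squamous gene with an S100 domain fused to a longer protein, was the only fused-type gene tested, of 2 found and 7 listed. It had 0, 2, 1 and 3 counts in complete medium and 28, 133, 61 and 12 counts in differentiation medium. It passed the filter on low counts only through the medium in which it is high, so its call in both edgeR fits is given as a count and supports nothing. Against the limit that 3 counts per library allow, its mean in differentiation medium was at least 18.5-fold higher, and at least 10.2-fold higher without EPN1, its highest line.

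Of 15 listed genes of the epidermal differentiation complex 4 were found, 3 tested and 0 called, with a median of 0.16 without the line and -0.18 with it. IVL (involucrin), a cornified envelope precursor, had 4.87, 34.8, 69 and 711 CPM in complete medium and 2.83, 2.51, 8.0 and 905 CPM in differentiation medium. It had the line order of the calgranulins in complete medium but was lower in 3 of 4 lines in differentiation medium. Its r over the libraries was 0.588 with S100A8 and 0.573 with S100A12. PGLYRP4, a peptidoglycan recognition protein, had 5.09, 13.2, 17.5 and 45.7 CPM in complete medium and 5.03, 11.3, 18.5 and 62.8 CPM in differentiation medium, the same line order with little change (0.26, edgeR adjusted p = 0.875). The difference between these genes and the calgranulins was not tested.

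Of 15 listed secreted antimicrobial genes 10 were found and 9 tested, with 0 called without the line and 1 called lower with it, and a median of 0.19 without the line. The 1 was BPI, which binds bacterial lipopolysaccharide, with 499, 75.7, 9.09 and 8.09 CPM in complete medium and 5.78, 0.770, 0.188 and 0.0467 CPM in differentiation medium (log2 -6.42, SE 0.25, adjusted p = 0.0039). BPI was thus highest in Em, where the calgranulins were lowest. SLPI, a secreted protease inhibitor, had 7.63, 34.1, 91.8 and 632 CPM in complete medium and 7.01, 79.7, 592 and 1398 CPM in differentiation medium, with r of 0.969 with S100A8 over the 8 libraries, and its change of 1.24 with the line as a block did not pass (SE 0.45, adjusted p = 0.103).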

How the data were processed

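Poly(A) RNA of 8 PPDO cultures was quantified by the authors with salmon in an nf-core workflow, on a pig genome with a custom annotation. The deposited values are estimated counts per gene, of which 78.6% of those above 0 are whole, and no p-values of the authors were used. For the S100A genes, values within 0.01 of a whole number were read as whole. The submitters' processing notes name GRCh38 and Sscrofa11.1, and coordinates are those of RefSeq for Sscrofa11.1. Entries of a gene with the suffixes -iso and -ext were summed by identifier and rounded, and 8 transgene entries (0.00142% of counts) were left out. RIN, sequencing depth and alignment were not re-examined. Libraries are named by the table's header, and the numbers in the sample titles were not matched to it.

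The tests used edgeR 4.0.16 (TMM, factors 0.935 to 1.06, default expression filter, quasi-likelihood test) and DESeq2 1.42.0 in R 4.3.3, and values were summarised with pandas 2.3.3 and drawn with matplotlib 3.10.9. The line was taken as a block because each line was grown in both media. Deviations from the medium means correlated at 0.396 to 0.654 in the 4 same-line pairs and at -0.492 to 0.272 in the 12 others. Nothing states that cultures of a line were independent. P-values of the fit without the line are set against the spread between these libraries within a medium. Those of the fits with line and medium, the line tests included, are set against what both terms leave over. A count of 0 allows up to 3 counts, 0.0626 to 0.0740 CPM, and intervals cover counting error only. The fits were tested on simulated counts.

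The S100A genes and all lists were chosen with earlier results of these data known. Named genes are all 8 found, in each list those called in either edgeR fit or otherwise the 2 of highest mean, the 3 of highest r (1 of them is not reported here), and, chosen after their values were seen, ANXA1, ANXA2, AGER, TLR4, MCAM, S100G, SLPI, S100A13, KRT5, KRT8, KRT18, THY1, CD79A and the other immune markers named. The line contrasts and the alternatives within the block were added after the data were seen. Other alternatives left out single libraries or lines, the filter or the -ext entries, or used RLE size factors or DESeq2.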

Additional observations from a re-analysis of the deposited data

Results flagged for a closer look

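S100A8 in EPN2 in complete medium stood apart from the other 3 lines in that medium on the CPM scale. With 1180 CPM against 188 CPM in LPN, the next highest, the gap was 0.844 of the whole range, above the 95% limit of Dixon's test for 4 samples. The CPM were not log-transformed for this rule. The 4 values span 230-fold, so the size of the gap depends on the scale, and the rule was not applied on a log scale. The rule was applied to 16 groups, and chance passes about 1 in 20.

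The change of S100A10 went up in Em, by 0.81 on the log2 scale, and down in each of the 3 postnatal lines, from 305 to 536 CPM in Em but from 868 to 549 CPM in LPN. The difference between Em and the postnatal lines was not tested.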

How the results depend on the processing

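For the comparison of media without the line, 1009 genes were called by edgeR. The count was 2884 with the line as a block, 3026 with DESeq2, 5597 with DESeq2 and the block and 506 with no expression filter, and 70 to 1199 without single libraries and 0 to 1207 without single lines. Of the 8 S100A genes 0 were called, 2 with the block, 1 with DESeq2, 4 with DESeq2 and the block, and 0 to 1 without single libraries or lines (1 without EPN2, S100A4). Over the lists 3 genes were called, 5 with the block, 8 with DESeq2, 11 with DESeq2 and the block, 1 with no filter and 0 to 3 on leaving out libraries or lines. With the block, the 2884 genes became 5597 with DESeq2 and 8 to 2989 without single lines (8 without EPN1, 22 without LPN), and the 2 S100A genes became 4 with DESeq2 and 0 to 4 without single lines. For the lines, 744 genes became 4376 with the DESeq2 likelihood ratio test, 1163 with no filter and 104 to 379 without single lines, and 3 S100A genes became 6, 5 and 0 to 4. The cause of these shifts was not tested. Fits that leave libraries out hold fewer of them, and the count also differed with the line left out. In edgeR without the block it was 0 genes without EPN1 and 1207 without EPN2.

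S100A2, S100A4, S100A8 and S100A12 kept the direction of their change with the medium in every fit run. In edgeR without the line, the change of S100A6 ran from -0.13 to 0.15 without single libraries or lines, that of S100A10 from -0.37 to 0.065, that of S100A11 from -0.20 to 0.23 and that of S100A14 from -0.88 to 0.22, so the sign of these 4 depends on the libraries used. With the block, S100A6 was 0.0062 with RLE size factors, 0.0086 with DESeq2 and -0.074 to 0.045 without single lines, and S100A10 was -0.33 to 0.13 without single lines. Where the sign turned, none of these 4 genes passed the test. Whether lines respond differently was not tested, and the within-line calls of S100A8 and S100A12 rest on EPN1 and LPN.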
